A study of Mus musculus with 768 samples.

Results

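Transcripts of 10 cell junction genes were followed in single cells of mouse cochlear organoids: the classical cadherins Cdh1, Cdh2 and Cdh3, the adhesion molecule Epcam, the claudins Cldn1, Cldn3, Cldn4, Cldn6 and Cldn7, and occludin (Ocln). They were taken by symbol from the 52636 genes of the deposited count tables, and all 10 were present in both tables. The cells came from the greater epithelial ridge (the epithelium on the inner side of the developing organ of Corti), which had been sorted by flow cytometry from Fgfr3-CreERT2/Ai14-tdTomato/Sox2-GFP mice at postnatal day 2. All groups carried these 3 alleles and were grown in 1 medium, DMEM/F-12 with N-2 and B-27 supplements, ampicillin, EGF, FGF2, IGF1, CHIR99021 (an inhibitor of the kinase GSK3), valproic acid (a histone deacetylase inhibitor), 2-phospho-L-ascorbic acid and the TGFβ receptor inhibitor 616452. The groups are 3, 3 and 5 cultures harvested at days 1, 3 and 7. They also differ in the deposited table that holds them: 4 of the 5 day 7 cultures, but 1 of 3 cultures of each earlier day, are in the first. Single cells of the cultures were picked by hand after trypsin treatment and sequenced with SmartSeq2, which reads whole cDNAs and has no molecular identifiers. No untreated or freshly sorted cells are among these groups.

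Cadherins join neighbouring epithelial cells at adherens junctions, where their cytoplasmic tails bind catenins. Cdh1 (E-cadherin) is the main cadherin of most epithelia, Cdh2 (N-cadherin) is typical of neural and mesenchymal cells and, in the cochlea, of the inner part of the sensory epithelium, and Cdh3 is P-cadherin. Claudins form the strands of tight junctions that seal the paracellular path, occludin is a further tight junction membrane protein, and Epcam is a membrane protein of epithelial cells that binds claudin 7.

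After removal of 57 cells of low depth or high mitochondrial content, between 37 and 86 cells were retained in each of the 11 cultures. Their reads were summed per culture, which gave between 26391412 and 72483565 reads on genes per culture, and levels are given as TMM-scaled read counts per library total (CPM). The median cell held 703264 reads for day 1, 786776 for day 3 and 876145 for day 7. The labels do not say whether replicates come from separate animals, so p-values measure the spread between these cultures, which may be technical. Epcam had a read in all but 2 of the retained cells, and those 2 also lacked Cdh1 reads. Of other cell types, both Reissner membrane markers (Otx2 and Vmo1), 3 of 4 endothelial markers (Pecam1, Kdr and Cldn5), 3 of 4 melanocyte markers (Dct, Tyr and Mlana) and 2 of 3 markers of the stria (Kcne1 and Esrrb) were at 0 in every culture. The remaining marker of each reached at most 0.466 CPM (Cdh5), 5.74 CPM (Pmel) and 20.8 CPM (Kcnq1). All 5 glial, 5 neuronal and 4 immune markers had reads, with summed levels over the cultures from 58.3 to 110.4 CPM, from 4.03 to 40.5 CPM and from 0.347 to 9.01 CPM. All 8 mesenchyme markers had a read. Their summed level ranged from 1431 to 1521 CPM in the day 1 cultures and from 1007 to 1457 in those of day 3. In those of day 7 it ranged from 592.1 to 2862. Nearly all of it came from the proteoglycan genes Dcn and Lum. Col1a1 was at no more than 2.12 CPM, and Col3a1 was at 0 in every culture except day 3 culture 3 (11.3 CPM). Col1a2 reached 17.98 CPM (day 1 culture 1) and Twist1 11.06 (day 7 culture 1). Pou3f4 reached 8.52 CPM and Pdgfra 6.33, both in day 3 culture 3. Of the 2 cells without Epcam and Cdh1 reads, that of day 3 culture 3 had reads of 5 mesenchyme markers. That of day 7 culture 5 had reads of 1. The part of these other cell types in the results was not tested.

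Cdh1, Epcam, Cldn1 and Cldn4 fell between day 1 and day 7, and none of the genes rose. With edgeR's quasi-likelihood test, adjusted over all genes, 4 of the 10 passed at an adjusted p of 0.05, against 7.11% of the 17466 genes tested (3.56% lower). Cldn1 and Cldn4 also fell between day 3 and day 7, so that 2 of 10 passed there, against 0.968% of all genes (0.784% lower). Between day 1 and day 3 none of the 10 passed, against 0.0115% of all genes, and DESeq2 and limma called none either. At an unadjusted p under 0.05, 1 of the 10 (Epcam) passed in that comparison, against 9.26% of all genes. The median fitted log2 change of the 10 genes was 0.16 between days 1 and 3, -0.60 between days 1 and 7 and -0.60 between days 3 and 7, beside 0.018, 0.0028 and 0.011 over all genes tested. These comparisons share cultures.

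**Figure D1:**
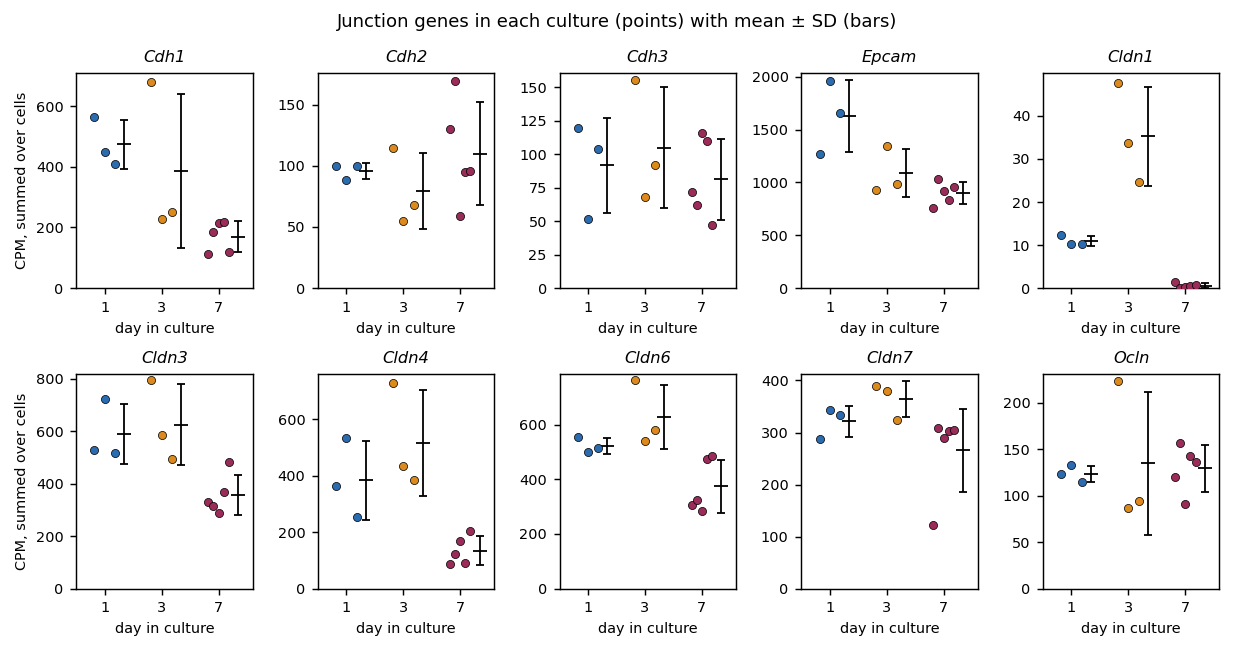
Summed level of each gene in CPM (y axes start at 0) against the day in culture; each point is 1 culture and the bars are the mean ± SD of the 3, 3 and 5 cultures. Cldn1 lies between 24.6 and 47.5 CPM on day 3 and at or under 1.46 CPM on day 7, and day 3 culture 1 is the highest point of its day for 9 of the 10 genes.

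**Figure D2:**
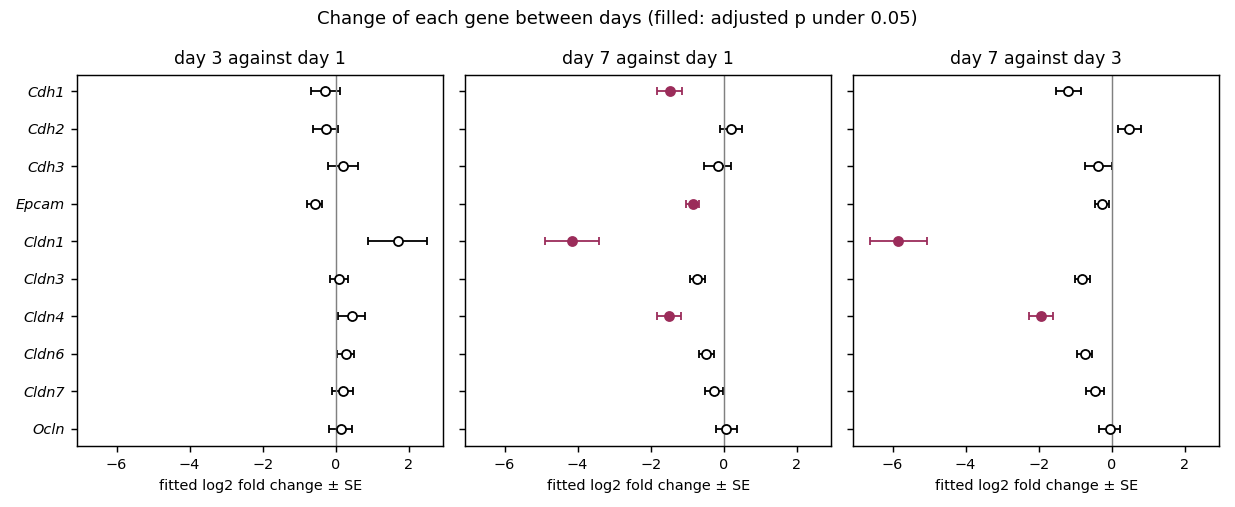
Fitted log2 fold change of each gene with its standard error (SE) in the 3 comparisons between days; filled points passed an adjusted p of 0.05. Cldn1 stands at -4.15 and Cldn4 at -1.51 for day 7 against day 1, and Cdh2 and Ocln lie within 1 SE of 0 there.

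Per kilobase of their longest annotated transcript, the genes kept a wide order of levels. On day 1 Epcam was the most abundant at 799 ± 167.8 CPM per kb (SD, n = 3), followed by Cldn3 at 467.9 ± 91.2, Cldn6 at 322.4 ± 17.7, Cldn7 at 240.6 ± 21.9 and Cldn4 at 211.1 ± 77.4. Cdh1 stood at 106.9 ± 17.96 CPM per kb, Ocln at 30.5 ± 2.18, Cdh3 at 20.9 ± 8.13, Cdh2 at 19.8 ± 1.34 and Cldn1 at 3.37 ± 0.377. The ranges of the cultures overlapped for the neighbours Cldn7 and Cldn4 and for Cdh3 and Cdh2, but not for Epcam and Cldn3, which ran from 624.3 to 959 and from 410.6 to 573.1 CPM per kb. On day 7 Epcam still led at 441.3 ± 51.4 CPM per kb (SD, n = 5), Cdh1 had come down to 38.3 ± 11.5, and Cldn1 was again last at 0.189 ± 0.174. The ranges of Cdh1 (25.2 to 49.3) and Ocln (22.6 to 38.7) then overlapped.

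Among the cadherins, Cdh1 fell and neither Cdh2 nor Cdh3 passed the test. Cdh1 (GRCm38 chromosome 8, 106603351 to 106670246, plus strand, 16 exons in the longest transcript) stood at 562.9, 447.9 and 410.2 CPM in the day 1 cultures, at 679.6, 229.5 and 251.6 on day 3, and at 111.8, 185.3, 213.3, 218.4 and 119.6 on day 7. All 5 day 7 cultures lay below every culture of both earlier days, and day 3 was split, with culture 1 far above the other 2. For day 7 against day 1 the log2 change was -1.48 (SE 0.34, adjusted p = 0.0242, edgeR quasi-likelihood). For day 7 against day 3 it was -1.19 (SE 0.34, adjusted p = 0.150) and did not pass. Of 24 alternatives 2 called it, the DESeq2 Wald test (adjusted p = 0.0145) and edgeR with the deposited table as a term (-1.44, adjusted p = 0.0344). Over the 24 this change ran from -1.89 to -0.53. The call against day 1 was lost when any 1 of the 3 day 1 cultures was left out (edgeR, adjusted p from 0.0523 to 0.0839). Over 24 alternatives the change from day 1 stayed between -1.89 and -1.36. In sums over cells, fewer cells with a transcript and fewer transcripts per cell cannot be told apart. Of Cdh1 the median cell held 362.1 CPM for day 1, 256.8 for day 3 and 138.8 for day 7.

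Cdh2 (chromosome 18, 16588877 to 16809246, minus strand) measured 99.8, 88.5 and 99.6 CPM on day 1, 114.3, 55.05 and 68.3 on day 3, and 130.3, 169.5, 58.7, 95.04 and 95.9 on day 7. The 3 groups overlapped in every comparison, and the fitted change from day 1 to day 7 was 0.19 (SE 0.31, adjusted p = 0.763). An annotated antisense gene, Gm15485, lies within Cdh2, and reads of the 2 cannot be told apart without strand. Cdh3 (chromosome 8, 106510891 to 106557297, plus strand), the direct upstream neighbour of Cdh1 at a distance of 46.1 kb, ranged from 51.5 to 119.6 CPM in the day 1 cultures, from 68.2 to 155.2 in those of day 3 and from 47.001 to 116.01 in those of day 7. Its change from day 1 to day 7 was -0.17 (SE 0.36, adjusted p = 0.828).

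The ratio of Cdh1 to Cdh2 reads was lower in every day 7 culture, by a difference that missed the threshold after adjustment. The log2 ratio was 2.5, 2.34 and 2.04 in the day 1 cultures, 2.57, 2.06 and 1.88 on day 3, and -0.22, 0.13, 1.86, 1.2 and 0.32 on day 7. All day 7 cultures lay below all earlier ones, by little for culture 3, and in culture 1 Cdh2 reads outnumbered Cdh1 reads. The mean was 2.29 ± 0.23 (SD, n = 3) on day 1 and 0.66 ± 0.85 (n = 5) on day 7. The difference of -1.63 had an exact two-sided permutation p = 0.0357, or 0.0536 after adjustment over the 3 pairs of days, and the difference of -1.51 from day 3 had the same values. Between day 1 and day 3 the ratio differed by -0.12 (exact permutation p = 0.8). This ratio was not corrected for the length of the transcripts, which is 4430 bases for Cdh1 and 4843 for Cdh2.

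In single cells thinned to 200000 reads each, 70.1% had reads of both cadherins, 22.01% of Cdh1 only, 3.31% of Cdh2 only and 4.60% of neither. Cells with Cdh2 only numbered 2 in the day 1 cultures (1.14%), 6 in those of day 3 (2.70%) and 15 in those of day 7 (5.03%). They made up 12% of the cells of day 7 culture 5 and 10.8% of culture 2, 0% in culture 4, and between 0% and 6.06% in the cultures of earlier days. Within cultures the 2 transcripts were weakly related across cells, with a mean Spearman rho of 0.12 over 11 cultures (range -0.04 to 0.24), a description over cells that share a culture.

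**Figure D3:**
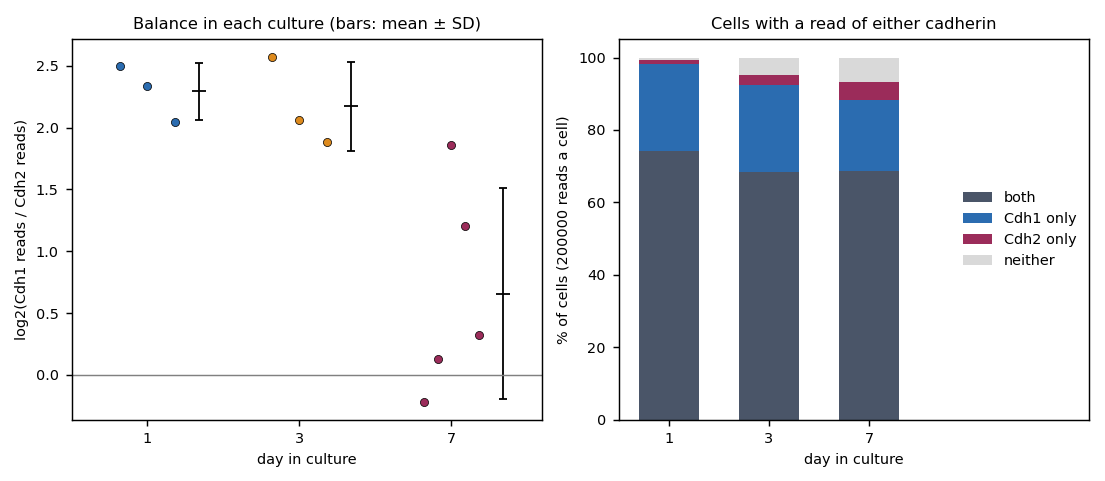
Left, log2 ratio of Cdh1 to Cdh2 reads in each culture (points) by day, with the mean ± SD; right, percent of thinned cells of each day with a read of both cadherins, of Cdh1 only, of Cdh2 only or of neither. The day 7 cultures run from -0.22 to 1.86, and cells with both make up 74.3%, 68.5% and 68.8% of days 1, 3 and 7.

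Epcam fell, as did 3 of 6 partner genes, among them Spint1 and Spint2. It measured 1274, 1956 and 1660 CPM on day 1, 933, 1349 and 982 on day 3, and 761.2, 1031, 919, 835 and 955 on day 7. Day 7 lay wholly below day 1, with day 3 between them and overlapping both. The log2 change was -0.86 (SE 0.18, adjusted p = 0.0164, edgeR) for day 7 against day 1, -0.58 (SE 0.21, adjusted p = 0.413) for day 3 against day 1 and -0.27 (SE 0.18, adjusted p = 0.655) for day 7 against day 3. The call was lost without day 1 culture 2 and without day 1 culture 3, with adjusted p up to 0.301 over 24 alternatives. Nearly every cell kept the transcript, with a read in 99.1%, 99.1% and 99.7% of thinned cells on days 1, 3 and 7, while the median cell held 1507, 934 and 859.8 CPM. Of 6 genes whose products act with Epcam, 3 passed as lower from day 1 to day 7, against 3.56% of all genes, and the others did not pass. Spint1, a membrane protease inhibitor, went from 318.2 ± 49.8 (n = 3) to 110.7 ± 34.5 CPM (n = 5; log2 change -1.52, SE 0.23, adjusted p = 0.00325). Spint2, a second inhibitor of the same family as Spint1, fell by 0.70 on the log2 scale (SE 0.17, adjusted p = 0.0296). Spint1 also fell from day 3 to day 7 (adjusted p = 0.0331).

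The claudins split into 2 that fell and 3 that did not pass the test. Cldn1 was the scarcest of the 10 genes and had the largest fitted changes. It measured 12.3, 10.2 and 10.3 CPM on day 1, 47.5, 33.6 and 24.6 on day 3, and 1.46, 0, 0.217, 0.618 and 0.774 on day 7, so that no 2 days overlapped. The increase from day 1 to day 3 did not pass the test (log2 change 1.69, SE 0.80, adjusted p = 0.556), although the cultures did not overlap, which was so for 9.88% of all genes in that direction. Cldn1 fell from day 1 to day 7 (log2 change -4.15, SE 0.73, adjusted p = 0.00731) and from day 3 to day 7 (-5.84, SE 0.78, adjusted p = 0.00568). Over 24 alternatives the first of these changes ran from -7.58 (non-cycling cells) to -2.19 (limma on mean CPM per cell) and the second from -9.99 to -3.70 in the same fits. These values rest on 1341 and 6011 reads on days 1 and 3 and on a mean of 0.613 CPM on day 7. In day 7 culture 2 there was no read among 31839626, which allows up to 3 reads, or 0.0942 CPM without the TMM scaling of the other levels. The reads came from few cells: the 10% of cells with the most Cldn1 held 98.8% of its reads on day 1 and 78.5% on day 3, and the highest cell reached 581.2 CPM on day 3 and 55.6 CPM on day 7.

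Cldn4 measured 362.3, 533.3 and 254.7 CPM on day 1, 730.2, 434.2 and 383.5 on day 3, and 86.8, 122.6, 170.01, 88.9 and 203.9 on day 7. All day 7 cultures lay below all earlier ones, while days 1 and 3 overlapped. The log2 change was -1.51 (SE 0.33, adjusted p = 0.0183) for day 7 against day 1 and -1.94 (SE 0.33, adjusted p = 0.0199) for day 7 against day 3. In non-cycling cells alone (those with a read in fewer than 3 of 6 late cell cycle genes), the change from day 1 was -0.38 (SE 0.69, adjusted p = 0.895) and that from day 3 was -1.25 (SE 0.68, adjusted p = 0.540). Leaving out day 1 culture 2 ended the first call, and leaving out day 3 culture 1, day 3 culture 2 or day 7 culture 1 ended the second. Cldn4 was also uneven between cells, with 57.8% of its day 7 reads in 10% of the cells and a highest cell at 5299 CPM beside a median of 59.8.

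Cldn3, which lies 39.3 kb from Cldn4 on chromosome 5 and is transcribed on the other strand, came close to the threshold. It measured 528.6, 721.5 and 516.9 CPM on day 1, 793, 585.5 and 495.2 on day 3, and 330.8, 314.3, 287.2, 368.9 and 483.9 on day 7. The day 7 cultures were below all others, and the log2 change from day 1 was -0.72 (SE 0.21, adjusted p = 0.0564, edgeR). It passed in 6 of 24 alternatives, among them the replicate number as a block (adjusted p = 0.0276) and DESeq2 size factors (adjusted p = 0.0402). In non-cycling cells it was -0.38 (SE 0.24, adjusted p = 0.558). An annotated antisense gene, Wbscr25, overlaps Cldn3, and reads of the 2 cannot be told apart without strand. Cldn6, a claudin of embryonic epithelia, measured 554.8, 498.8 and 515.4 CPM on day 1 and 763.7, 542.4 and 582.2 on day 3. In day 7 cultures 1, 2, 4 and 5 it measured 304.7, 325.1, 473.8 and 485.3, with culture 3 the lowest. Its log2 change from day 1 was -0.48 (SE 0.21, adjusted p = 0.178, edgeR). It passed in 1 of 24 alternatives, the replicate block (adjusted p = 0.0272), and was -0.07 in non-cycling cells (SE 0.25, adjusted p = 0.952). Cldn7 measured 287.8, 342.3 and 333.5 CPM on day 1, 389.9, 379.2 and 324.8 on day 3, and 122.9, 308.4, 288.7, 302.9 and 305.1 on day 7. Day 7 cultures 2 to 5 were within the day 1 range, culture 1 was far below it, and the change was -0.27 (SE 0.25, adjusted p = 0.566). Ocln measured 122.9, 132.6 and 114.9 CPM on day 1, 223.4, 86.4 and 94.8 on day 3, and 119.9, 156.7, 91.5, 142.8 and 136.4 on day 7, with overlap throughout and a change of 0.07 (SE 0.29, adjusted p = 0.924). In all, 6 of the 10 genes had day 7 cultures below every day 1 culture, against 9.06% of all genes in that direction.

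As shares of the summed level of the 5 claudins in CPM per kb, which corrects for transcript length (SD over 3, 3 and 5 cultures), Cldn4 made up 16.6% ± 3.996, 19.2% ± 2.64 and 9.38% ± 2.83 for days 1, 3 and 7. Cldn7 made up 19.5% ± 2.43, 19.2% ± 2.69 and 25.1% ± 6.33. Cldn3 kept 37.4%, 34.03% and 36.3%, and Cldn6 kept 26.2%, 26.9% and 29.2%. These shares are a description and were not tested.

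The stretches just before the start sites of the genes that fell, and of Cldn3 as the neighbour of Cldn4, are shown because the claudin pair lies close together and differs in these bases. Start sites of 7 of the 10 genes were matched in RefSeq (GRCm38.p6); those of Cdh1, Cdh2 and Cdh3 were not used here. Each run holds the 250 bases before the start, 5′ to 3′ on the strand of the gene, and capitals mark matches on either strand to 1 of 4 motifs: TGANTCA (AP-1), CAGGTG (the E-box bound by Snail and Zeb factors), AACCNGTT (Grainyhead-like factors) and GGAATG (TEAD factors). None of these motifs overlap in the runs.
Cldn4 (chr5:134946935-134947184, minus strand): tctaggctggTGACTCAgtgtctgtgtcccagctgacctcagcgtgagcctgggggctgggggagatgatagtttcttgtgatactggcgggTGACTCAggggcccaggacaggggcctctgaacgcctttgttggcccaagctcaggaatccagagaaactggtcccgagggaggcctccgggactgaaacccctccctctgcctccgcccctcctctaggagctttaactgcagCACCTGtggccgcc
Cldn3 (chr5:134985964-134986213, plus strand): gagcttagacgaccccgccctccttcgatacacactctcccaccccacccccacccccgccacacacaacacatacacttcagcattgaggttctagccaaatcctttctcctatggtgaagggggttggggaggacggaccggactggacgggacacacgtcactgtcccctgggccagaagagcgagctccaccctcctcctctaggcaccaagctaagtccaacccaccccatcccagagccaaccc
Cldn1 (chr16:26371840-26372089, minus strand): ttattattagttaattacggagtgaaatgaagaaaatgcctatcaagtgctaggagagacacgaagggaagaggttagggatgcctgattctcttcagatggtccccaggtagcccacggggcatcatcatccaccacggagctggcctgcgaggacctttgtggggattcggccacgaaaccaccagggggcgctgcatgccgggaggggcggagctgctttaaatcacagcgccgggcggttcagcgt
Epcam (chr17:87635729-87635978, plus strand): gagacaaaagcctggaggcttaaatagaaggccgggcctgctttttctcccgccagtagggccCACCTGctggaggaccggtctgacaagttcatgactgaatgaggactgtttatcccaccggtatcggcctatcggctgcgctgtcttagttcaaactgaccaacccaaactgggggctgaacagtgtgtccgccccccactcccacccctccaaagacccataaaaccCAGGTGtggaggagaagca
Cldn4 held 2 AP-1 matches, beginning after the first 10 and 92 bases of the run, and an E-box match 14 bases before the start. Epcam held 2 E-box matches, 1 after the first 63 bases and 1 beginning 19 bases before the start, and Cldn3 and Cldn1 held no match to any of the 4. The E-box was also present in Cldn6, Cldn7 and Ocln, which did not pass the test. Cldn7 and Ocln had 2 windows each, and only the second held it. Thus 5 of the 7 matched genes held it in at least 1 window. Over all 32851 RefSeq windows of 250 bases, 6.75% held an AP-1 match, 17.2% the E-box, 1.79% the Grainyhead-like motif and 12.6% the TEAD motif. These shares are counted by window and not by gene. Such a match is a string of letters, and binding was not measured.

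Other junction genes passed the test from day 1 to day 7 in these numbers, against 7.11% of all genes: 2 of 11 claudins, 3 of 9 cadherins, 1 of 11 adherens junction partners, 3 of 20 tight junction partners and 0 of 7 desmosome genes. Of the 19 further claudins listed, 11 had enough reads for the test, and the most abundant, Cldn9, measured from 861 to 1638 CPM on day 1 and from 462.6 to 1400 on day 7 with no call. Cldn22 and Cldn24 rose from day 1 to day 7 (adjusted p = 0.0168 and 0.00672), from 67 and 2 reads to 3016 and 2365, and the single highest culture held 26.2 and 26.1 CPM. Cldn22 lies within Wwc2 on the other strand, so that reads of the 2 cannot be told apart. Of the 19 further cadherins listed, 9 were tested. Cdh11, a cadherin typical of mesenchymal cells, rose from 45.7 ± 8.27 (SD, n = 3) to 101.3 ± 17.3 CPM (n = 5; log2 change 1.15, SE 0.30, adjusted p = 0.0407), and Cdh13 and Cdh18 fell from means of 7.92 and 5.52 CPM to 4 reads and 0 reads in all (adjusted p = 0.00129 and 0.00243). Of 11 adherens junction partners 1 fell, Nectin3 (log2 change -1.70, SE 0.39, adjusted p = 0.0241), and Ctnnb1 (beta-catenin) did not pass (0.54, SE 0.17, adjusted p = 0.0808). Of 20 tested tight junction partners, Jam3 (-1.68, adjusted p = 0.0319) and the occludin relative Marveld3 (-0.89, adjusted p = 0.0413) fell, and Tjp3 (ZO-3) rose (0.97, adjusted p = 0.0483). None of 7 desmosome genes passed. The median log2 change from day 1 to day 7 was -0.69 for the adherens junction list, -0.42 for the tight junction list and -0.54 for the desmosome list, beside 0.00 over all genes.

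Of 11 epithelial transcription and splicing factors, Klf5 fell from day 1 to day 7 (38.1 ± 9.43 to 11.1 ± 3.15 CPM, log2 change -1.79, SE 0.27, adjusted p = 0.00354) and the others did not pass. Over all genes 7.11% passed in this comparison, which is also the share to set beside the next list. Of 9 tested genes linked to the epithelial-mesenchymal transition, Vim (vimentin) fell from 528.2 ± 106.3 to 274.997 ± 30.8 CPM (log2 change -0.94, SE 0.16, adjusted p = 0.00569), while the transcription factor genes Twist1 and Prrx1 rose from 3 and 0 reads to 1653 and 1208 (adjusted p = 0.00707 and 0.0117), to means of 6.86 and 5.37 CPM. Snai1, Snai2, Zeb1 and Zeb2, which encode repressors of Cdh1, stayed at or below 5.01 CPM in every culture, and none of them passed. Of the cell type markers, over the same interval, 2 of 8 for the greater epithelial ridge fell (Tectb and Otog), 2 of 6 for supporting cells (Lgr5 and Slc1a3) and 2 of 5 for neurons (Tubb3 and Nefl), against 3.56% of all genes lower. Of 6 tested mesenchyme markers, Col1a2 fell and Twist1 rose. None of the tested markers of hair cells (7), glia (4), immune cells (3), melanocytes (1), stria (1) or red blood cells (1) passed. The part of these in the junction genes was not tested.

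The share of cells with a read was also compared between days. Cldn1 had a read in 11.7% ± 1.21 of thinned cells on day 1 (SD, n = 3 cultures), in 26.97% ± 8.20 on day 3 (n = 3) and in 2.38% ± 1.91 on day 7 (n = 5), with no overlap in any pair of days. Such separation was found for 9.1% of all genes in the upward direction from day 1 to day 3, for 9.88% downward from day 1 to day 7 and for 5.92% downward from day 3 to day 7. In day 7 culture 2, 0 of 37 cells had a read of Cldn1, which allows a share of up to 8.11%. Cldn4 had a read in 84.5% ± 14.99, 86.1% ± 6.85 and 73.97% ± 2.94 of cells, and Cdh1 in 97.6% ± 2.66, 92.03% ± 3.83 and 88.3% ± 7.77, with overlap between days 1 and 7 for Cldn4 and Cdh1 alike. Cdh1 was least detected in day 7 culture 5, at 77.3%. Cldn3, Cldn6, Cldn7 and Epcam had a read in at least 92.96% of cells on each day, Ocln in 80.03% to 82.3%, Cdh2 in 70.8% to 76.5% and Cdh3 in 67.3% to 76.6%. Cldn3 was detected in more cells on day 7 (99.4%) than on day 1 (94.2%) although its summed level was lower, and no order is read from that share. By the exact permutation test no gene passed after adjustment over all 17466 genes (3 cultures against 3 cannot go below p = 0.1, and 3 against 5 not below 0.0179). Without thinning, Cldn1 was detected in 13.9%, 29.7% and 4.19% of retained cells. The median cell had reads of 8, 9 and 8 of the 10 genes on days 1, 3 and 7.

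**Figure D4:**
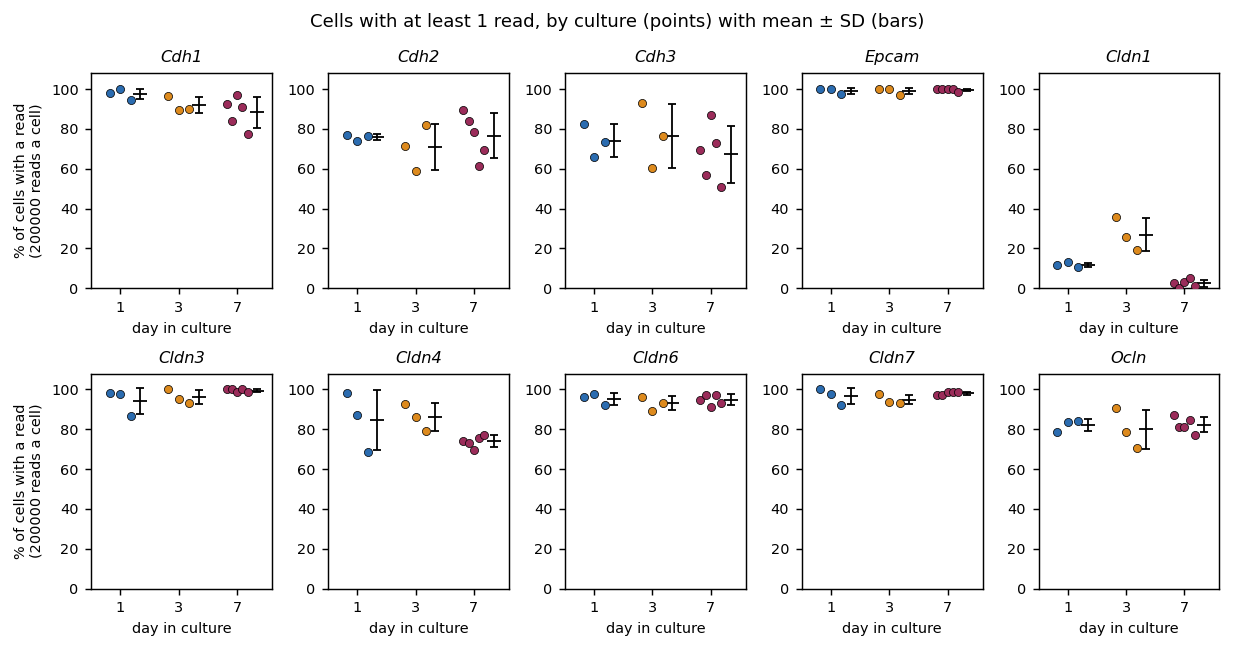
Percent of cells with at least 1 read of each gene after thinning to 200000 reads a cell, by day; each point is 1 culture and bars are mean ± SD over 3, 3 and 5 cultures. Epcam stays above 97% in every culture, and Cldn1 goes from 11.7% to 26.97% and 2.38% on average.

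Across cells of a culture, pairs of claudins had the highest mean correlations. The mean Spearman rho over the 11 cultures was 0.56 for Cldn3 and Cldn4 (range 0.32 to 0.86), 0.48 for Cldn3 and Cldn6, 0.44 for Cldn4 and Cldn6 and 0.42 for Cldn3 and Cldn7, positive in every culture. Cdh1 was most related to Ocln (0.36, positive in 11 of 11). Cdh2 had mean values between -0.06 and 0.04 with the 5 claudins. These are descriptions over cells that share a culture and were thinned to 1 depth, and part of any such relation can come from the composition of reads in a cell.

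Epcam, Cldn3, Cldn4, Cldn6 and Ocln were lower in proliferating cells. A cell was counted as cycling with a read in at least 3 of 6 genes of the late cell cycle (Mki67, Top2a, Cdk1, Birc5, Ccnb2 and Tpx2), which held for 16.5% to 23.7% of cells in the day 1 cultures, 56.9% to 70.2% on day 3 and 25.3% to 86.96% on day 7. Within each culture, summed levels in cycling cells were set against those in the other cells, and 11 cultures were tested with exact sign flips (two-sided), adjusted over all 17466 genes. Of the 10 genes 5 passed, all lower in cycling cells, against 10.4% of all genes (3.57% lower). Cldn4 differed by -1.26 (mean log2 difference, SD 1.21, n = 11, lower in 10 of 11 cultures, exact adjusted p = 0.0345), a call that was lost in 9 of the 11 fits that left out 1 culture. Cldn6 differed by -0.68 (SD 0.34, lower in 11 of 11, exact adjusted p = 0.0181) and Cldn3 by -0.58 (SD 0.44, lower in 10 of 11, exact adjusted p = 0.0266). Ocln differed by -0.58 (SD 0.31, lower in 11 of 11, exact adjusted p = 0.0181) and Epcam by -0.28 (SD 0.20, lower in 10 of 11, exact adjusted p = 0.0266). Cldn7 was higher in 10 of 11 cultures, by 0.11, and did not pass (SD 0.15, exact adjusted p = 0.138), and neither did Cdh1, Cdh2, Cdh3 or Cldn1. The median over all genes was -0.01. An edgeR fit with the culture as a term, chosen after seeing the data, called the same 5 genes, against 13.8% of the 13223 genes in that fit. With the mean over cells of log2(CPM + 2), which weights cells equally, none of these 5 passed (Ocln had an exact adjusted p = 0.0545), and Cdh3 passed as higher in cycling cells (0.80, exact adjusted p = 0.0241). That measure had a median of 0.27 over genes of at least 20 CPM, beside 0.02 with summed reads.

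For Cdh1, Cdh2 and Cldn1 the mean of this difference was negative on days 1 and 3 and positive on day 7, without passing the test over all genes. Cdh1 was lower in cycling cells in all 6 cultures of days 1 and 3, by 0.21 to 1.06 on the log2 scale, and higher in 3 of the 5 cultures of day 7. Its mean difference for days 1, 3 and 7 was -0.62, -0.59 and 0.14, that of Cdh2 was -0.23, -0.32 and 0.14, and that of Cldn1, which has few reads, was -1.18, -1.87 and 2.05. Of 30 such contrasts over the 10 genes, 3 had an exact permutation p under 0.05, all for day 7 against day 3: Cdh1 and Cldn1 at p = 0.0357 and Epcam, negative on both days, at p = 0.0179. Their adjusted p over all genes was 0.998, 0.998 and 0.975. In non-cycling cells alone, the change of Cdh1 from day 1 to day 7 was -1.57 (SE 0.38, adjusted p = 0.0688, edgeR). That of Epcam was -0.82 (SE 0.22, adjusted p = 0.0959) and that of Cldn1 was -7.58 (SE 0.68, adjusted p = 0.000238). Of the 10 genes 1 was called there, against 1.24% of all genes in that fit and 7.11% in the main fit.

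**Figure D5:**
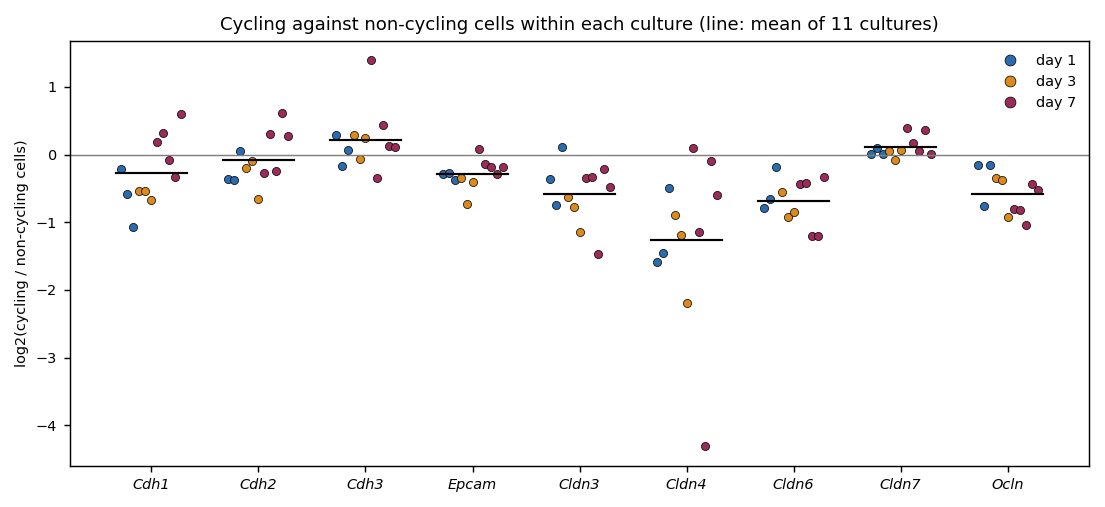
Log2 ratio of the summed level in cycling to that in non-cycling cells, for 9 of the genes (Cldn1, with few reads, is left out); each point is 1 culture, coloured by day, and the line is the mean of the 11 cultures. Cldn6 and Ocln lie below 0 in all cultures, and 1 day 7 culture stands at -4.31 for Cldn4.

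A few cells held reads of 2 or more hair cell genes out of Pvalb, Myo7a, Gfi1, Pou4f3 and Atoh1. Of 14 such cells, 13 came from the 4 cultures of days 1 and 3 that had any. In each of those 4 cultures Cdh1 was lower in these cells than in the others, by a mean of -1.85 on the log2 scale (range -4.67 to -0.47). So was Cldn4, by -3.72 (range -8.76 to -0.66), and Cldn3 by -1.01, Cldn7 by -0.67 and Epcam by -0.66. Cdh2 was higher in 3 of 4, by a mean of 1.04. Cdh3 was lower in 3 of 4, by a mean of -0.96, and Cldn1, Cldn6 and Ocln were lower in 2 and higher in 2. The share of all genes lower in 4 of 4 is not given here. The median of these 13 cells was 78.5 CPM of Cdh1 and 111.6 of Cdh2, against 304.1 and 39.6 in the other cells of the same cultures. With 3 or 4 such cells a culture, these differences were not tested. With cells holding reads of 2 or more of these genes left out, the change of Cdh1 from day 1 to day 7 was -1.51 (SE 0.33, adjusted p = 0.0209, edgeR). It was -1.48 in the main fit. Cells with a read of 1 such gene were kept. Hair cell reads were counted in thinned cells, so the 2 fits may differ in more than these cells. The part of these cells in the fall of Cdh1 was not tested.

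Over the 11 cultures, the gene of at least 20 CPM most like each of 9 of the genes was named by Pearson's r of log2 CPM. Cldn1 was closest to Cald1 (r = 0.95), the actin-binding protein caldesmon. Cldn3 was closest to Tpm2 (r = 0.94), a tropomyosin gene that also stood among the first 3 for Cldn1 and Cldn6. Epcam was closest to Arpc3 (r = 0.95), a subunit of the Arp2/3 complex, Cdh1 to Fam126a (r = 0.98), Cdh2 to Snx13 (r = 0.90), Cdh3 to Cebpz (r = 0.88), Cldn6 to Ubash3b (r = 0.93), Cldn7 to Mfap1a (r = 0.91) and Ocln to Sec24d (r = 0.94). These are the highest of many values over cultures that fall into 3 days, and carry no test.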

How the data were processed

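Expected counts (estimated reads) of each gene in 768 cells were deposited by the authors as 2 tables, without normalisation. STAR 2.5.3a, RSEM 1.3.0 and the builds mm10 and GRCm38 are named in the submitters' processing notes; strand use in counting is not given in the sources used here. Counts were rounded. Cells with at least 50000 reads on genes, 1500 genes and at most 20% mitochondrial reads were retained (711 of them: 182, 228 and 301 for days 1, 3 and 7) and summed per culture (day and replicate of the labels). Rows that name no gene (96, holding 0.0045% of reads) were left out. Days were compared with edgeR 4.0.16 in R 4.3.3 (filterByExpr, TMM, quasi-likelihood F-test, 1 fit over 11 cultures with day as the term), with Benjamini-Hochberg adjustment over 17466 genes; SE is the log2 change divided by the square root of F. DESeq2 1.42.0 and limma 3.58.1 were alternatives. The fit was tested on simulated data. Shares used the 695 cells that could be thinned to 200000 reads. Exact permutation and sign-flip tests took the culture as the unit and were adjusted over all genes tested, not over the members as first planned. Reads are PCR copies, so limits from a count of 0 cover counting error only. Coordinates are from GENCODE M21 and RefSeq; identifier versions of Epcam, Cldn1 and Cldn6 differ between the tables and GENCODE M21. Named genes are the 10 members, up to 3 genes per junction list with the smallest adjusted p for day 7 against day 1, called genes in lists with 5 or fewer, and the gene most like each member (1 gene under this rule is not reported here); Cldn9, Ctnnb1 and the Snail and Zeb genes were named in addition. Members and lists were chosen with earlier results of these data known.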

Additional observations from a re-analysis of the deposited data

Results flagged for a closer look

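Of 31 sets of 5 day 7 cultures examined for a sample far from the others, 4 held one, and chance gives about 1 in 20. Cldn7 stood at 122.88 CPM in day 7 culture 1, while the other 4 cultures lay between 288.7 and 308.4 CPM. Epcam had a read in 98.667% of the thinned cells of day 7 culture 5, against 100% in the other 4. With those 4 at the ceiling, any lower value would have been flagged. The difference between cycling and non-cycling cells in day 7 culture 3 was -4.3129 on the log2 scale for Cldn4, with the other cultures between -1.15 and 0.10, and -1.4683 for Cldn3, with the others between -0.48 and -0.22. That culture also had the highest share of cycling cells, at 86.96%; the part of this in both values was not tested.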

How the results depend on the processing

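Of 24 alternatives, Cldn1 kept its call from day 1 to day 7 and from day 3 to day 7 in 23, Cdh1 its call in 18, Epcam in 19 and Cldn4 in 20 (17 from day 3 to day 7), and none of these changes turned direction. The 4 genes called from day 1 to day 7, against 7.11% of all genes, became 1 in non-cycling cells only, against 1.24%. Leaving out 1 culture gave 1 to 5, against 2.39% to 8.02%. The first deposited file holds 1 culture each of days 1 and 3, and the second 1 of day 7. In fits of 1 file a lone culture is assumed to vary like the others, so only changes are given. From day 1 to day 7 the first file gave -1.67 for Cdh1, -0.57 for Epcam, -4.47 for Cldn1 and -1.67 for Cldn4. The second gave -0.92 for Epcam and -0.95 for Cldn4. The 2 called from day 3 to day 7 became 5 with the DESeq2 Wald test, 1 in non-cycling cells, 0 in the first file and 1 in the second; leaving out 1 culture gave 1 to 3. Of all genes, 0.968% were called from day 3 to day 7 in the main fit, 3.66% with the DESeq2 Wald test and 0.533% in non-cycling cells. When 1 culture was left out, this share ran from 0.189% to 1.01%. The counts from 1 file rest on a lone culture and are not set beside a share. The 5 called between cycling and non-cycling cells, against 10.4% of all genes, became 1 with the mean of log2(CPM + 2), against 11.8%. That 1 was Cdh3, higher, and none of the 5. Leaving out 1 culture gave 4 to 5, against 7.87% to 8.74%. The cause was not tested.

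Signs turned only for changes that were not called. From day 1 to day 3, the first file alone gave 0.23 for Cdh1 and 0.15 for Cdh2, the second file alone -0.22 for Cldn3 and -0.47 for Ocln, and limma -0.033 for Ocln; leave-one-out fits ran from -0.23 to 0.44 for Cdh3, from -0.16 to 0.26 for Cldn3 and from -0.48 to 0.37 for Ocln, the lowest each without day 3 culture 1. From day 1 to day 7, Cdh2 stood at -0.0024 and Ocln at -0.11 with the deposited file as a term, and Ocln at -0.0069 with DESeq2 size factors, -0.0068 with the DESeq2 test and -0.030 with the replicate block; leave-one-out fits ran from -0.015 to 0.30 for Cdh2, from -0.45 to 0.0078 for Cdh3 and from -0.032 to 0.13 for Ocln. From day 3 to day 7, Cdh2 stood at -0.023 in the first file, and Ocln at 0.11 with limma, 0.096 in non-cycling cells and 0.61 in the second file, with leave-one-out fits from -0.30 to 0.49. The Cdh1 to Cdh2 ratio from day 1 to day 3 ran from -0.32 to 0.024 in leave-one-out. In cycling cells, the mean of log2(CPM + 2) gave 0.48 for Cdh2 and -0.34 for Cldn1, edgeR gave -0.11 for Cldn1, and leave-one-out ran from -0.34 to 0.34 for Cldn1.

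Deviations of cultures with the same replicate number correlated from -0.01 to 0.06 over 9 pairs, and those with different numbers from -0.085 to 0.072. With the same number, every pair except culture 3 of days 3 and 7 was above 0, and with different numbers most were below 0. Such small values cannot decide whether the numbers pair cultures, and the labels do not say. With the replicate block, Cdh1 from day 1 to day 7 and Cldn4 from day 3 to day 7 lost their calls. Cldn3 (day 1 to day 7) and Cldn6 (both intervals to day 7) gained one. Depth limits Cldn1 most, at a mean of 0.613 CPM on day 7.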
